A study of Mus musculus with 8 samples.

Results

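The genes described here build and steer the neuronal cytoskeleton: tubulins, the proteins that bind, stabilise or destabilise microtubules, neuronal intermediate filaments, and proteins of the growth cone, the motile tip of a growing axon. The 40 genes are well-known members of these families, chosen by name with earlier results of these data known. Of these, 39 had a probe set of their own among 22180 genes tested. Tuba4a, an alpha-tubulin, shared its probe set with another gene and is not analysed here. Their levels were compared between Sox2-eGFP+ and Sox2-eGFP- cells sorted from medulloblastomas, tumours of the cerebellum that in this model are driven by Hedgehog signalling. The mice came from Patched1+/- CD1 and Sox2eGFP B6 parents, had been given 3 Gy of ionizing radiation at birth and were over 70 days old when a brain tumour showed. Both groups share this genotype and the radiation, both had been depleted of CD45+ and Ter119+ cells, and no untreated or normal cerebellum was compared. Each group had 4 arrays, called positive and negative pool 1 to 4 here after their replicate numbers, and each array held RNA of 3 tumours pooled, so the spread is between pools and not between single animals.

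In these tumours most cells resemble progenitors of cerebellar granule neurons. As such a progenitor leaves the cell cycle it extends neurites, and it then switches on neuron-specific tubulin, doublecortin and other microtubule-binding proteins, while broadly used tubulins serve the spindle of dividing cells as well. Glia and their progenitors also build processes on microtubules and use some of the same genes. The reporter marks cells in which Sox2, a transcription factor of neural stem and glial progenitor cells, is active.

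Values are log2 expression values, in which a difference of 1 means 2-fold. Differences are given as Sox2-positive minus Sox2-negative, with the standard error (SE) of the fit, and p-values are from limma, a linear model fitted across all genes, adjusted over all 22180 genes with a threshold of 0.05. Among all genes 1321 were called higher and 558 lower, so 70.3% of calls were higher (60.2% after quantile normalization). A level below 5.80, the upper quartile of olfactory and vomeronasal receptor genes, is called dim here, since these cells are not known to use those receptors. Sox2 itself was higher by 1.65 (SE 0.17, adjusted p = 2.53e-05) in the positive cells, at 5.67, 6.07, 6.36 and 5.68 against 4.05, 4.60, 4.49 and 4.04. The positive arrays at 5.67 and 5.68 and all negative arrays were thus dim for Sox2. Array medians lay between 5.83 and 5.88, and arrays correlated at 0.973 to 0.987 within groups and at 0.942 to 0.968 between them. The number of arrays limits the precision of every value.

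Among neuronal cytoskeleton genes past the test, more were lower than higher in Sox2-positive cells, and several families split. Of the 39 genes, 9 fell (Stmn2, Ina, Map1b, Dpysl5, Stmn1, Tubb3, Crmp1, Dcx and Tuba1b), 4 rose (Tubb4a, Tubb6, Tubb2a and Dclk2) and 26 did not pass the test. The lower genes are 23.1% of the members, where 2.52% of all genes were called lower. The higher genes are 10.3% of the members, beside 5.96% of all genes. Most members are well above the dim range, and among the 11548 genes left after the dimmer ones were taken out, 5.03% were called lower and 10.9% higher, against 28.6% and 11.4% of the 35 members left. The share of higher members was thus near its background and the share of lower members was not. Since the members were chosen with earlier results of these data known, these shares only describe this set. The part of that choice in them was not tested. The median difference of the members was -0.05, beside -0.03 over all genes. By sign alone, 22 members were lower and 17 higher, beside 13017 and 9159 of all genes. The groups did not overlap for 8 members that were lower and 5 that were higher (20.5% and 12.8%), where 6.07% and 7.63% of all genes had such a separation. Leaving out positive pool 4, negative pool 1 or negative pool 4 left 2 higher genes, while Tubb2a and Tubb6 kept their call under every alternative tried.

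**Figure D1:**
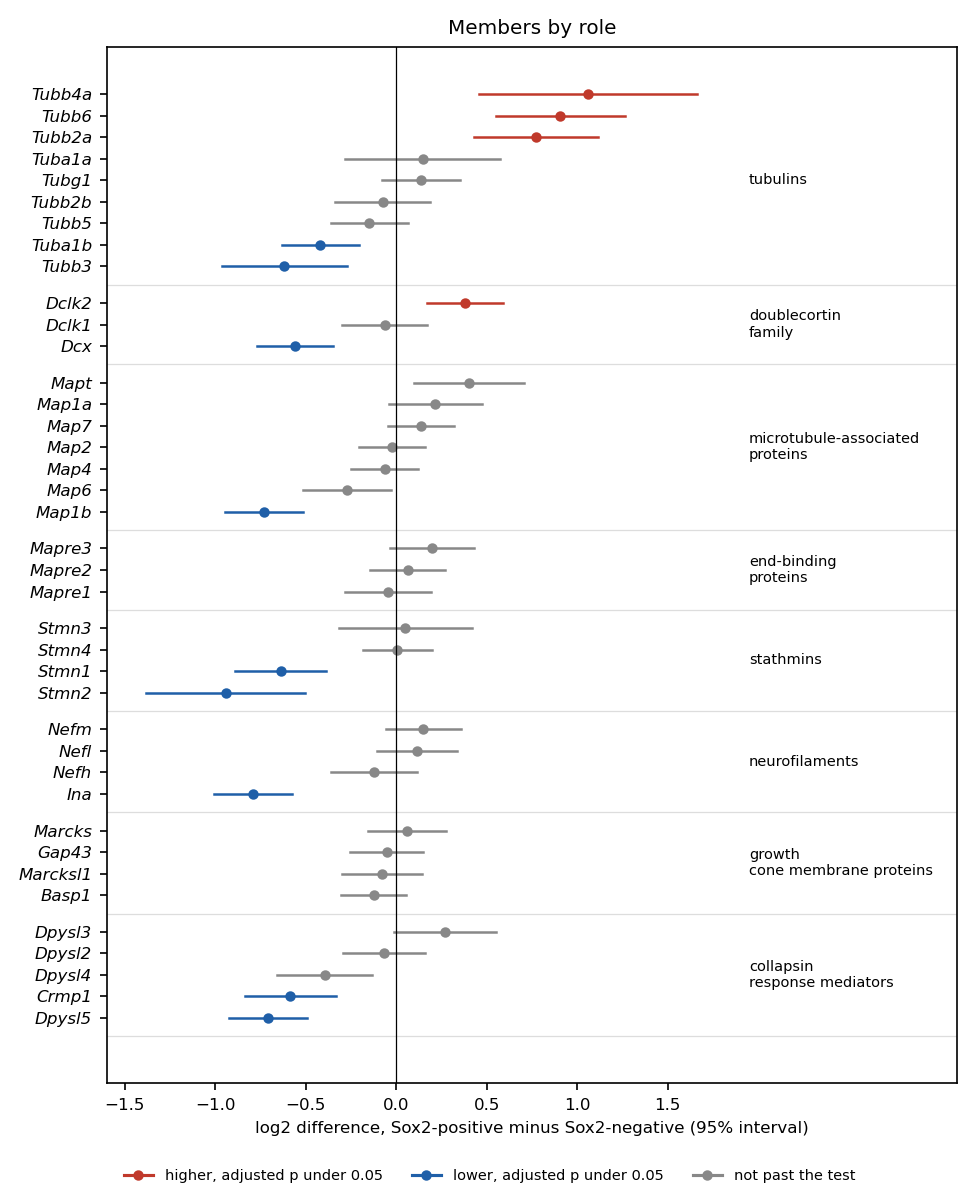
Log2 difference (Sox2-positive minus Sox2-negative, horizontal axis) of the 39 members, grouped by role, with the 95% interval of the fit as a line; red genes were higher, blue genes lower and grey genes not past the test. The 9 lower genes lie in 6 of the 8 role groups, and the 4 higher genes are 3 beta-tubulins and Dclk2.

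The sort also separated cells that differ in type, and these values stand beside every gene described. All 10 measured markers of oligodendrocyte progenitors were higher in Sox2-positive cells, led by Ptprz1, Olig1 and Olig2, and the mean level of the list was 8.70 to 9.28 against 6.13 to 6.19 over the arrays. For astrocytes 9 of 12 were higher and 0 lower, at 6.98 to 7.68 against 6.15 to 6.26, with Slc1a3, Clu and Apoe leading. Mature oligodendrocyte markers were higher for 4 of 10 (6.09 to 7.03 against 5.67 to 5.84), with Ugt8a, Cnp and Cldn11 leading and Mal, Ermn, Opalin and Mag dim in both groups. Of 11 granule neuron progenitor markers 10 were lower (Zic2, Zic1 and Barhl2 most) and 1, Ccnd1, was higher, with list means of 7.90 to 8.13 against 8.51 to 8.87. Of 12 markers of differentiating granule neurons 5 were lower and 1 higher (6.51 to 6.85 against 6.98 to 7.35). Cntn2 and Nhlh1 fell most, Etv1 was the higher gene, and Gabra6, Grin2c and Slc17a7, which mark mature granule neurons, were dim in both groups. For Purkinje cells and interneurons Car8 and Gad1 were higher and Lhx1 lower among 9 (5.37 to 5.52 against 5.38 to 5.44), with 6 dim in both groups. No marker passed in limma for microglia and macrophages (0 of 12, 2 at an unadjusted p under 0.05; 5.54 to 5.66 against 5.51 to 5.73) or endothelial cells (0 of 8, 1 unadjusted; 5.29 to 5.37 against 5.34 to 5.51). Of these genes 7 of 12 and 6 of 8 were dim in both groups. Of 8 pericyte and fibroblast markers Rgs5 alone passed and was higher (5.59 to 5.75 against 5.66 to 5.76). The 1 measured red blood cell marker, Slc4a1, was dim in both groups and did not pass. In sorted bulk RNA, fewer cells of a type and less RNA per cell cannot be told apart, and the part of these cell types in the results was not tested.

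RefSeq promoters (assembly GRCm38.p6) were used for 22 of the 39 members, with none for Stmn2 or Stmn1, nor for Tubb6 among the higher genes. Members' promoters on 1 chromosome were left out by choice, while the set of all promoters kept that chromosome. A member without a promoter here therefore need not lack one in RefSeq. Among the members with a promoter, those shown are the 3 with the largest decrease (Ina, Map1b and Dpysl5) and the 1 with the largest increase (Tubb4a), whether or not they hold a motif. The 250 bases before the start site are printed 5′ to 3′ on the gene's strand, and capitals mark a match to CAGCTG or CAGATG, E-boxes that proneural factors are known to bind, or to CATTGT, a core bound by Sox factors, searched on both strands.
Ina, chr19:47014431-47014680, plus strand: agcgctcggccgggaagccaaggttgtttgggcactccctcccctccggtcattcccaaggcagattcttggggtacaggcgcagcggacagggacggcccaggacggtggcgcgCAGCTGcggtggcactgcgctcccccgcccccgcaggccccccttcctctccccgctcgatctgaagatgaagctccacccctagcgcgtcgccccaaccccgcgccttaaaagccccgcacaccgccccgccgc
Map1b, chr13:99516603-99516852, minus strand: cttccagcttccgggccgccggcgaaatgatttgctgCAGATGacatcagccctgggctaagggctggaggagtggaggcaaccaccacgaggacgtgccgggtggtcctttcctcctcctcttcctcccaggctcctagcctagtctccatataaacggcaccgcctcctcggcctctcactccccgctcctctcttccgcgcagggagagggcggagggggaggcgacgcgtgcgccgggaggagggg
Dpysl5, chr5:30711314-30711563, plus strand: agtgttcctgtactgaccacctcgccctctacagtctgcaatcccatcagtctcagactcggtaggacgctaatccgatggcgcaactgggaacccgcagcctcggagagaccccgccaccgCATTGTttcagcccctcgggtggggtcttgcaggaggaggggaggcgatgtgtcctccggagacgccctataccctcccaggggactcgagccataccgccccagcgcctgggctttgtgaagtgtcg
Tubb4a, chr17:57087601-57087850, minus strand: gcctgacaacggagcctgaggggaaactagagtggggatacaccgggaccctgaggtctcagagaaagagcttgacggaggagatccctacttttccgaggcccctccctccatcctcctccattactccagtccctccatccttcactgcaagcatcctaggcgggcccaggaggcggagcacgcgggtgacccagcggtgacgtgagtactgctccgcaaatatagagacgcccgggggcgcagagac

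Over the whole 300-base windows, which end 50 bases after the start site, an E-box of either kind was found in 3 of 9 promoters of 7 lower members (33.3%; Ina, Map1b and Tuba1b), where Dcx and Crmp1 have a pair each and no match. It was found in 0 of 3 promoters of the higher members, in 26.7% of the 15 promoters of 12 members that did not pass and in 30.6% of all 32851 promoters. CATTGT was found in 2 of 9 promoters of lower members (22.2%; Tubb3 and Dpysl5), in 0 of 3 of higher members, in 6.67% of those of members that did not pass and in 12.6% of all. No 2 matches in the members' promoters shared a base. The E-box share of the lower members was close to that of all promoters. A match in letters is no evidence of binding.

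Tubulins, the subunits of microtubules, moved in both directions. Of 9 measured, 3 rose and 2 fell. Tubb3, the neuron-specific beta-tubulin whose protein is a standard marker of young neurons, was at 8.54, 8.59, 8.95 and 8.27 in Sox2-positive pools 1 to 4 and at 8.90, 9.33, 9.58 and 9.02 in Sox2-negative pools 1 to 4. Only Sox2-positive pool 3 reached into the Sox2-negative range, and pool 3 was the highest of both groups. Tubb3 fell by 0.62 (SE 0.16, adjusted p = 0.0279). Within each pool number the positive cells were lower, by differences of -0.36, -0.74, -0.63 and -0.75. It no longer passed when positive pool 1, 2 or 4, or negative pool 2 or 3, was left out (adjusted p = 0.0598 to 0.0863).

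Tuba1b, an alpha-tubulin used in most cell types, was at 7.44, 7.50, 7.58 and 7.72 against 7.85, 8.13, 7.88 and 8.05, with no overlap. It fell by 0.42 (SE 0.10, adjusted p = 0.0164), and did not pass when positive pool 2 was left out (0.0555). Tuba1a, the main alpha-tubulin of developing neurons and mutated in lissencephaly, stood at 9.32, 9.27, 9.67 and 9.39 against 9.10, 9.19, 9.99 and 8.78. Here the Sox2-negative arrays spread over both sides of the Sox2-positive ones, and the difference of 0.15 did not pass (95% interval -0.28 to 0.58, adjusted p = 0.757).

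Tubb4a rose most of all members. This beta-tubulin is abundant in the brain and known from neurons and oligodendrocytes, and its mutations cause a leukodystrophy. Its values were 9.20, 10.86, 9.65 and 9.92 in the positive and 8.69, 9.17, 9.14 and 8.39 in the negative pools. The groups did not overlap, but the lowest Sox2-positive pool lay only just above the highest Sox2-negative pool, and the Sox2-positive SD of 0.70 was the widest of any member. Its highest array, positive pool 2, was also the highest Sox2-positive array for 9 of the 10 mature oligodendrocyte markers, beside 5244 of all 22180 genes. Of these 10 markers 4 had dim means in both groups. Among oligodendrocyte progenitor markers it was highest for Olig1, Sox10, Pdgfra, Cspg4, Gpr17, Sox8 and Lhfpl3, but not for Olig2, Ptprz1 or Bcan. Mag was at 7.10 there against 4.87 to 5.68 in the other positive pools, Cldn11 at 9.71 against 7.44 to 9.06 and Cnp at 7.76 against 6.32 to 6.91. The part of either cell type in the rise of Tubb4a was not tested. The difference was 1.06 (SE 0.28, 2.08-fold, adjusted p = 0.0314). Without positive pool 2 it was 0.74 (adjusted p = 0.05, just under the threshold before rounding), and it did not pass when positive pool 4, or negative pool 1 or 4, was left out (0.0691 to 0.0999).

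Tubb6, a beta-tubulin that is low in neurons and found in many other tissues, was at 6.33, 6.99, 6.88 and 6.95 against 5.73, 6.12, 5.52 and 6.15. All Sox2-positive arrays were above all Sox2-negative arrays, 2 of which were dim. The rise was 0.91 (SE 0.17, 1.88-fold, adjusted p = 0.00294). Tubb2a, a beta-tubulin of brain, was at 6.88, 6.79, 7.27 and 6.85 against 5.70, 6.15, 6.52 and 6.33, again without overlap. It rose by 0.77 (SE 0.16, 1.71-fold, adjusted p = 0.00694).

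The other tubulins did not pass. Tubb2b, the close copy of Tubb2a that is mutated in polymicrogyria, was at 8.64 ± 0.14 in the positive and 8.71 ± 0.24 in the negative arrays (mean ± SD, n = 4 each; 95% interval of the difference -0.34 to 0.19). Tubb5, a beta-tubulin of dividing and young cells, was at 11.37 ± 0.04 and 11.52 ± 0.18 (interval -0.36 to 0.06). Tubg1, the gamma-tubulin that nucleates microtubules at the centrosome, was at 8.52 ± 0.11 and 8.39 ± 0.16 (interval -0.08 to 0.35). Tubulin genes are near-identical over much of their coding sequence, so a probe set named for a single isotype may also bind transcripts of others, and the values of single isotypes are uncertain to that extent. The further, dimmer probe sets of Tuba1a, Tubb2b and Tubb5 had differences of 0.10, 0.01 and -0.15, none past the test.

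In the doublecortin family, whose members bind and bundle microtubules in migrating neurons, the genes parted. Dcx, the family's founder and a marker of migrating young neurons, was at 8.39, 8.30, 8.47 and 8.16 against 8.74, 8.87, 9.02 and 8.91. Every Sox2-positive array was below every Sox2-negative array. Dcx fell by 0.56 (SE 0.10, adjusted p = 0.00216). Dclk2, a doublecortin-like kinase, was at 7.72, 7.74, 7.73 and 7.81 against 7.41, 7.58, 7.34 and 7.16, and rose by 0.38 (SE 0.10, adjusted p = 0.0280). The Sox2-positive arrays lay close together above the others, yet the gene did not pass when positive pool 2, 3 or 4, or negative pool 1, 3 or 4, was left out (0.0599 to 0.0807). Dclk1, the other doublecortin-like kinase, was at 8.14 ± 0.16 and 8.20 ± 0.16 (interval -0.30 to 0.17, adjusted p = 0.814).

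Of 7 microtubule-associated proteins 1 fell and 0 rose. Map1b, which stabilises microtubules in growing axons and is among the first such proteins to appear in neurons, was at 9.49, 9.27, 9.43 and 9.34 against 10.16, 10.03, 10.33 and 9.95. The groups lay apart, with a gap between the highest Sox2-positive and the lowest Sox2-negative array. It fell by 0.73 (SE 0.10, adjusted p = 0.000306). Map2, the dendritic protein, was at 9.25, 9.31, 9.36 and 9.30 against 9.29, 9.35, 9.44 and 9.23. Its interval was narrow around no difference (-0.20 to 0.16, adjusted p = 0.923). Map4, the form used outside neurons, was at 8.06 ± 0.03 and 8.12 ± 0.11 (interval -0.25 to 0.12).

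Mapt, which encodes the axonal protein tau, was at 6.12, 6.62, 6.22 and 6.22 against 6.05, 5.54, 6.14 and 5.85. Its groups overlapped by 1 array and the difference of 0.40 did not pass (SE 0.14, adjusted p = 0.11), with 1.08 of difference between the arrays of pool 2 and 0.06 between those of pool 1. Map6, which makes microtubules resist cold, had a difference of -0.27 (interval -0.51 to -0.03, adjusted p = 0.182) at a level that was dim in Sox2-positive cells. The other probe set of Map6, dim in both groups at 4.83 and 4.82, had a difference of 0.01 and did not pass. Map1a, the relative of Map1b that is known from mature neurons, had a difference of 0.22 (interval -0.04 to 0.47, adjusted p = 0.342). Map7, which recruits kinesin-1 to microtubules, was dim in both groups (5.16 and 5.02, adjusted p = 0.406). The end-binding proteins, which track growing microtubule ends, also did not pass (0 of 3 in limma, and 0 at an unadjusted p under 0.05). Mapre1 was at 7.10 ± 0.06 and 7.15 ± 0.23, Mapre2 at 7.32 ± 0.11 and 7.25 ± 0.14, and Mapre3, the form enriched in brain, at 6.53 ± 0.18 and 6.33 ± 0.13 (intervals -0.28 to 0.19, -0.15 to 0.27 and -0.04 to 0.43).

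**Figure D2:**
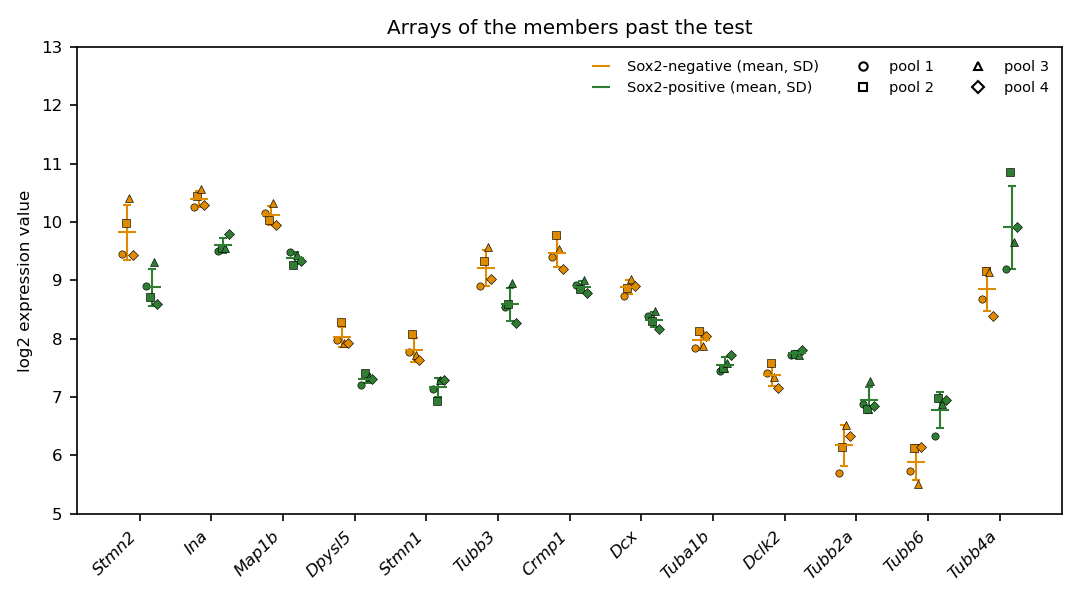
Log2 expression value (vertical axis) of each array for the 13 members past the test, ordered from the largest decrease (Stmn2) to the largest increase (Tubb4a); crosses of line and bar are the mean and SD of 4 arrays, and the marker shape gives the pool number. The 2 groups overlap for Tubb3 alone, and Tubb4a has the widest spread among Sox2-positive arrays.

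Stathmins bind tubulin dimers and destabilise microtubules. Of 4 measured, 2 fell and 0 rose. Stmn2, the stathmin of growth cones and regenerating axons, had the largest decrease of all members. It was at 8.91, 8.71, 9.31 and 8.59 in the positive and 9.46, 9.99, 10.41 and 9.43 in the negative pools. The groups did not overlap, and pool 3 was the highest in both. It fell by 0.94 (SE 0.20, adjusted p = 0.0101), which is 1.92-fold, and 23 of the 22180 genes had a larger decrease. Stmn1, which is used by dividing progenitors as well as by young neurons, was at 7.14, 6.94, 7.29 and 7.30 against 7.78, 8.09, 7.73 and 7.63. Its groups were also apart, with a fall of 0.64 (SE 0.12, adjusted p = 0.00302).

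Stmn3 and Stmn4, the other neuronal stathmins, did not pass. Stmn3 was at 8.97 ± 0.21 and 8.92 ± 0.39, and its interval of -0.32 to 0.42 leaves room for a moderate change either way. Stmn4 was at 6.63 ± 0.09 and 6.62 ± 0.08 (interval -0.18 to 0.20). Its other probe set, dim in both groups at 5.46 and 5.77, had a difference of -0.31 with no overlap between the groups, which did not pass either (adjusted p = 0.0756 over the probe sets with 1 symbol).

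Among neuronal intermediate filaments only Ina fell. Ina encodes alpha-internexin, the first neurofilament-type protein to appear in developing neurons, and was at 9.51, 9.55, 9.55 and 9.79 against 10.26, 10.45, 10.56 and 10.30. The gap between the groups was wider than the spread within either. Ina fell by 0.79 (SE 0.10, 1.73-fold, adjusted p = 0.00015). The neurofilament triplet, which fills mature axons, was dim throughout. Nefl was at 4.59 ± 0.16 and 4.47 ± 0.12, Nefm at 4.84 ± 0.10 and 4.69 ± 0.13, and Nefh at 5.07 ± 0.12 and 5.19 ± 0.21, so that no difference between the groups can be read from them (adjusted p = 0.424 to 0.603).

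The growth cone membrane proteins, which lie under the plasma membrane and regulate actin there, did not pass in any case (0 of 4 in limma, and 0 at an unadjusted p under 0.05). Gap43, the classical growth cone protein, was at 7.14, 7.31, 7.45 and 7.26 against 7.22, 7.39, 7.45 and 7.33. The arrays of the 2 groups ran side by side, with pool differences of -0.07, -0.07, 0.00 and -0.06, and an interval of -0.26 to 0.15 (adjusted p = 0.817). Basp1, a relative in function of Gap43, was at 9.16 ± 0.05 and 9.28 ± 0.09 (interval -0.30 to 0.06). Marcks, a substrate of protein kinase C, was at 8.79 ± 0.10 and 8.73 ± 0.16 (interval -0.16 to 0.27), and Marcksl1, its relative, at 7.82 ± 0.10 and 7.90 ± 0.17 (interval -0.30 to 0.14). All 4 intervals lie within 0.5 on the log2 scale either way, as do those of 21 of the 26 members that did not pass.

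Collapsin response mediators carry semaphorin signals to the microtubules of the growth cone, and 2 of 5 fell. Dpysl5, which restrains neurite growth in young neurons, was at 7.21, 7.42, 7.34 and 7.31 against 7.98, 8.28, 7.93 and 7.92. It fell by 0.71 (SE 0.10, adjusted p = 0.000382), with no overlap. Crmp1 was at 8.93, 8.86, 9.00 and 8.78 against 9.41, 9.77, 9.54 and 9.19, likewise apart. Crmp1 fell by 0.59 (SE 0.12, adjusted p = 0.00551). Dpysl4 was at 6.92, 6.98, 7.03 and 7.27 against 7.56, 7.70, 7.16 and 7.36. Its groups overlapped and the difference of -0.40 did not pass (SE 0.12, adjusted p = 0.0634). It passed when positive pool 4 or negative pool 3 was left out, after quantile normalization, and when dim genes were removed (0.0204 to 0.0444).

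Dpysl2, the most widely used of the family and also known from oligodendrocytes, was at 10.34, 10.69, 10.60 and 10.52 against 10.53, 10.74, 10.73 and 10.42 (interval -0.30 to 0.16, adjusted p = 0.795). Dpysl3, a growth cone protein that binds actin, had a difference of 0.27 (7.63 ± 0.20 against 7.36 ± 0.24, interval -0.01 to 0.55, adjusted p = 0.269). Its other probe set had a difference of -0.01. Thus Dpysl5 and Crmp1 lay below 0 over their whole intervals (-0.93 to -0.49 and -0.84 to -0.33), and these do not overlap those of Dpysl2 or Dpysl3.

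Whether related members changed unequally was examined for 10 pairs, each a gene tied more to neurons and a relative. The size of such a ratio depends on the probe sets and has no meaning alone, so only its difference between groups is read. The log2 ratio of the 2 genes within an array was compared between the groups with the exact permutation test (two-sided, 4 against 4, where 0.0286 is the smallest p possible). The ratio of Dcx to Dclk1 was 0.19 ± 0.06 in the positive and 0.69 ± 0.21 in the negative arrays (difference -0.49, exact permutation p = 0.0286, adjusted p = 0.0952). For Tubb2b over Tubb2a the ratio was 1.69 ± 0.11 against 2.54 ± 0.21 (difference -0.85, with the same p-values). Dclk1 and Tubb2b themselves differed by -0.06 and -0.07. Both ratios thus reuse the changes of Dcx and Tubb2a given above and are no separate support for them. The groups also lay apart for Nefm over Ina, but Nefm was dim in both groups, so that this ratio restates the fall of Ina and is not read as an unequal change. After adjustment over the 10 pairs 0 passed. At this smallest p at least 6 pairs would have had to separate fully before any could pass, and 3 did, so the adjusted values say little about single pairs.

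For the remaining 7 pairs the groups overlapped. Tubb3 over Tubb5 had a difference of -0.47 (SE 0.15, exact permutation p = 0.0571, adjusted p = 0.114), and Dpysl3 over Dpysl2 of 0.34 (SE 0.12, the same p-values). Tuba1a over Tuba1b differed by 0.57 (SE 0.31, adjusted p = 0.204) and Stmn2 over Stmn1 by -0.30 (SE 0.27, adjusted p = 0.444). Mapre3 over Mapre1 differed by 0.24, Gap43 over Marcks by -0.11 and Map2 over Map4 by 0.04 (adjusted p = 0.25, 0.204 and 0.629). Taken by pool number, 4 of these 7 pairs had differences of 1 sign in 4 of 4 numbers. For Mapre3 over Mapre1 they were 0.27, 0.32, 0.23 and 0.16, for Tubb3 over Tubb5 -0.27, -0.47, -0.34 and -0.80, for Dpysl3 over Dpysl2 0.57, 0.65, 0.09 and 0.06, and for Gap43 over Marcks -0.21, -0.02, -0.07 and -0.14. The exact permutation test within numbers gave each of the 4 its smallest possible p of 0.125 (adjusted p = 0.179), so a design of 4 numbers cannot settle these pairs. A ratio within an array shows only that 2 probe sets changed unequally, and not which of them did.

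**Figure D3:**
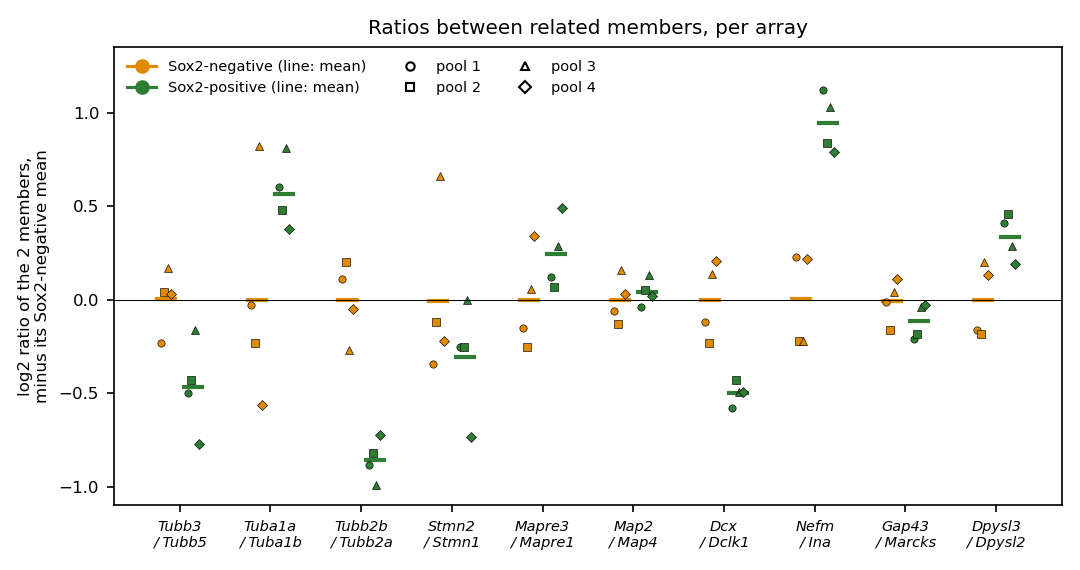
Log2 ratio of 2 related members in each array, minus the Sox2-negative mean of that ratio (vertical axis), for the 10 pairs tested; lines are group means and the marker shape gives the pool number. The groups separate for Tubb2b over Tubb2a and Dcx over Dclk1, by -0.85 and -0.49, and for Nefm over Ina, where Nefm is dim on all arrays and the separation is that of Ina.

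In several members the highest array had the same pool number in both groups. In 11 of the 39 (28.2%), Tubb3, Stmn2, Dcx and Tuba1a among them, pool 3 was the highest array of the Sox2-positive and also of the Sox2-negative group, beside 6.67% of all genes. This was true of pool 2 for 6 others (15.4%, beside 8.95%), and of pools 1 and 4 for 1 member each. Among the 12 markers of differentiating granule neurons 6 were likewise highest in pool 3 of both groups. Cntn2 was at 8.21 and 9.61 there against at most 7.64 and 9.12 in the other pools of each group, and Neurod1 at 6.96 and 7.82 against at most 6.55 and 7.29. The part of these cells in the values of pool 3 was not tested. Members may vary together across arrays and are then not separate observations, so these counts only describe the arrays. The labels do not say that equal numbers share tumours, so an effect of the pool number is not read from these counts. For 12 of the 13 members past the test the groups do not overlap, which fixes the sign within every pool number, and for Tubb3 the sign was also the same in 4 of 4. Of the 26 members that did not pass, 9 had 1 sign in 4 of 4 as well (34.6%, beside 30.0% of all genes). Mapt, Map7, Mapre3, Nefl and Nefm were the higher ones, and Map6, Gap43, Basp1 and Dpysl4 the lower ones. For Gap43 the arrays of pool 3 were equal to the digits given, so its sign there carries little weight.

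The wider cytoskeleton and growth cone machinery was represented by 9 further lists with 153 measured genes of 169 listed. Of these genes 14 were higher (9.15%) and 13 lower (8.50%) in Sox2-positive cells, with a median difference of 0.02. Over all genes 5.96% were higher and 2.52% lower, or 10.9% and 5.03% with dimmer genes left out. Among 17 genes of tubulin folding and modification 2 were higher and 1 lower. Sirt2, a deacetylase that acts on alpha-tubulin and is abundant in oligodendrocytes, was higher by 1.81 (SE 0.20, adjusted p = 4.37e-05), more than any member. The glutamylases Ttll7 and Ttll4 had differences of 0.36 (dim in both groups) and -0.36. Ttll7 did not pass when positive pool 1, 2 or 3, or negative pool 1, 3 or 4, was left out (0.0543 to 0.122). Ttll4 did not pass when any of the positive pools, or negative pool 1 or 2, was left out, nor with a variance trend (0.0523 to 0.125).

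No other tubulin passed (0 of 8; 0 at an unadjusted p under 0.05), and Tube1 had the largest difference there, -0.16 (limma adjusted p = 0.392). Among 21 genes of microtubule nucleation, severing and plus ends 1 was lower and 1 higher. Camsap1, which caps microtubule minus ends, fell by 0.46 (SE 0.09, adjusted p = 0.00391). Fign, a severing enzyme, rose by 0.36 at a level that was dim in both groups, and did not pass when any of the positive pools, or negative pool 1 or 4, was left out (0.0543 to 0.112). Among 25 axonal motors and adaptors 2 were lower and 1 higher. The neuronal kinesin-1 heavy chain Kif5c fell by 0.71 (SE 0.13, adjusted p = 0.00387) and Kif21a, a kinesin that slows microtubule growth, fell by 0.54 (SE 0.12, adjusted p = 0.00929). Kif1a, the motor of synaptic vesicle precursors, rose by 0.54 (SE 0.09, adjusted p = 0.00211).

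Of 24 growth cone actin regulators 3 were lower and 1 higher, but this balance turned with the setting. With the pool number as a block 5 were higher and 2 lower, with dimmer genes left out 4 were higher and 3 lower, and without positive pool 1 or negative pool 2 there were 3 higher and 2 or 1 lower. Without negative pool 3 there were 2 higher and 1 lower. Evl, of the Ena/VASP family that extends actin filaments, fell by 0.37 (SE 0.08, adjusted p = 0.0136), while its relative Enah rose by 0.39 (SE 0.10, adjusted p = 0.0347). Enah did not pass when positive pool 2 or 4, or negative pool 1, 2 or 4, was left out, with the pool number as a block (0.0504), or after quantile normalization (range over these 0.0504 to 0.12). Limk1, which phosphorylates cofilin, fell by 0.33 and did not pass when any array other than negative pool 1 was left out (0.0522 to 0.118). Of 23 axon guidance receptors 5 were higher and 4 lower. The netrin receptor Dcc fell by 0.86 (SE 0.14, adjusted p = 0.0012) and the plexin Plxnb2 fell by 0.73 (SE 0.11, adjusted p = 0.00085), whereas the plexin Plxna1 rose by 0.71 (SE 0.11, adjusted p = 0.000715).

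Of 10 axonal spectrin and ankyrin genes 1 was lower and 1 higher. Ank3, the ankyrin of the axon initial segment, fell by 0.51 (SE 0.12, adjusted p = 0.0154; 0.0548 without negative pool 1). Add3, an adducin, rose by 0.47 and did not pass when positive pool 2, 3 or 4, or negative pool 1, 2 or 4, was left out (0.0517 to 0.0695). Of 9 other intermediate filament genes 1 was higher, the astrocytic Gfap, by 0.78 (SE 0.09, adjusted p = 8.06e-05). Among 16 kinases and phosphatases of microtubule proteins 2 were higher and 1 lower. Cdk5r1, the activator of the neuronal kinase Cdk5, fell by 0.59 (SE 0.12, adjusted p = 0.00782), and Prkca, a protein kinase C, rose by 1.06 (SE 0.12, adjusted p = 8.34e-05). Ppp2r2b, a phosphatase 2A subunit, rose by 0.34 (adjusted p = 0.0499), and did not pass when any array other than positive pool 1 was left out, after quantile normalization or with a variance trend (0.0541 to 0.152).

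**Figure D4:**
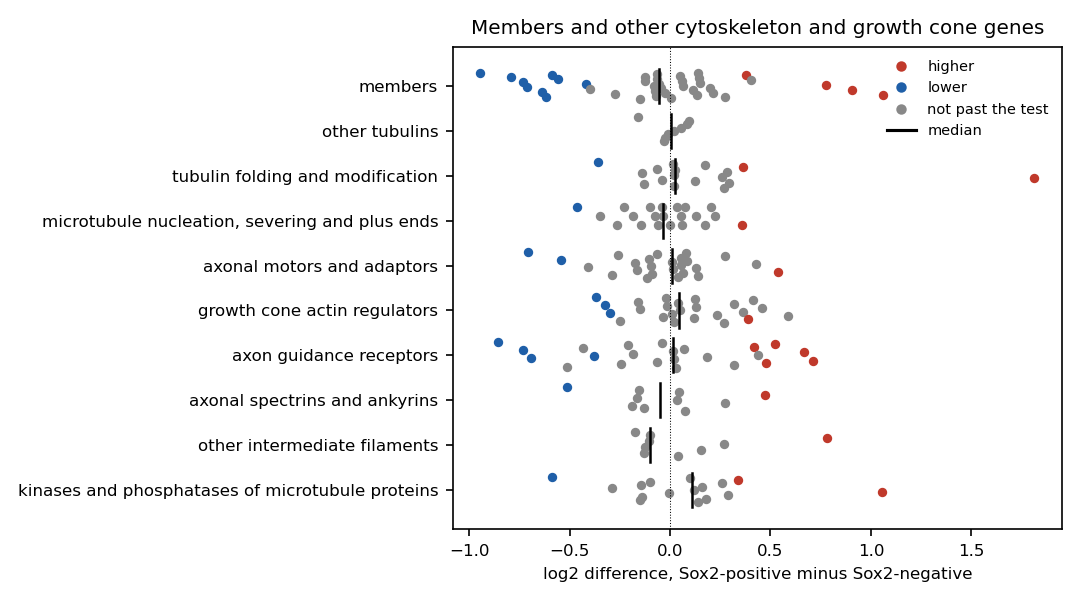
Log2 difference (Sox2-positive minus Sox2-negative, horizontal axis) of the 39 members and of the measured genes of 9 further lists; each point is a gene, coloured by its call, and black bars are medians. Sirt2 at 1.81 is the rightmost point, and the members hold 9 of the 22 lower genes shown.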

How the data were processed

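The deposited log2 values, 1 per probe set and array, come from RMA in the software Affymetrix Expression Console (version 1.2.0.20), per the submitters' processing notes; the genome build is not given in the sources used here. Folds of dim genes are understated on this scale, and any difference in total RNA per cell is lost. Of 41345 probe sets, 23521 had 1 gene symbol in the platform annotation, 1814 had several and 16010 were unnamed. The probe set with the highest mean over 8 arrays stood for each of 22180 genes, without a filter, and 5 of the members had a dim mean in at least 1 group. The fit used limma 3.58.1 in R 4.3.3 with group as the only term; exact permutation tests used scipy 1.17.1, and the code was tested on simulated data. Every measured member is named; from each further list the text names up to 3 genes that passed, by size of difference, or the 1 largest where none did. The members and lists were chosen with earlier results of these data known. The labels do not state whether equal pool numbers came from the same tumours. After each group's mean was subtracted, arrays of equal number correlated at 0.164, 0.114, 0.177 and 0.241. Arrays of unequal number correlated at -0.284 to 0.161. Positive pool 3 with negative pool 2 (0.161) and positive pool 1 with negative pool 4 (0.137) exceeded the 0.114 of pool 2. These values do not settle the pairing, and the number was also used as a block. Alternatives were leaving out each array, the block, quantile normalization, array weights, a variance trend, the mean of probe sets and leaving out dimmer genes.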

Additional observations from a re-analysis of the deposited data

Results flagged for a closer look

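An array stood far from the other 3 of its group in 8 of 122 groups of 4 examined (6.56%, where chance gives about 1 in 20). Tubb6 was lowest in Sox2-positive pool 1, at 6.33 against 6.88 to 6.99. Mapre1 was lowest in Sox2-negative pool 4, at 6.81 against 7.24 to 7.29. Nefl was highest in pool 4 of both groups, at 4.82 against 4.49 to 4.53 in Sox2-positive and at 4.66 against 4.40 to 4.42 in Sox2-negative cells, all in the dim range. Ina was highest in Sox2-positive pool 4, at 9.79 against 9.51 to 9.55, and Dpysl5 in Sox2-negative pool 2, at 8.28 against 7.92 to 7.98. Plxnb2 was lowest in Sox2-positive pool 2, at 8.48 against 8.87 to 8.92, and Cdk5r1 highest in Sox2-negative pool 3, at 7.45 against 6.91 to 6.97. The calls of Tubb6, Ina, Dpysl5, Plxnb2 and Cdk5r1 were kept without the array named here.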

How the results depend on the processing

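Of the 13 members past the test, 9 kept their call under all 14 alternatives, and no called member changed direction. The call of Tubb3, Tubb4a, Tuba1b or Dclk2 ended without single arrays only, and Dpysl4 passed in 4 alternatives. The number of higher members ranged from 2 to 4, and that of lower members from 7 to 9, when an array was left out, and the lower count was 10 after quantile normalization and when dim genes were removed. The median difference of the members ranged from -0.07 to -0.02 without an array and was -0.10 after quantile normalization; the cause was not tested. With the pool number as a replicate block, 4 members were higher and 9 lower, the calls of the 13 members stayed (adjusted p = 0.000233 to 0.032), 0 further members passed, and of the genes named Enah alone lost its call. For the member pairs 0 passed in any of the settings run; with 3 against 4 arrays the smallest exact p is 0.0571 and with the block 0.125, and with all arrays a pair can pass only where at least 6 of the 10 separate fully, so these settings cannot show stability. Over all genes, the count of lower genes went from 558 to 309 without positive pool 2 and to 847 after quantile normalization, and higher genes were 70.3% of the calls, or 60.2% after quantile normalization. The counts of the 9 further lists, 0 to 5 each, moved by over 1.5 times in at least 1 alternative for 12 of 18, within 0 to 7. Of the members not past the test, 8 changed sign in some setting.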
